A study of Mus musculus with 4 samples.

Results

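The Frizzled receptors are the 10 mouse genes Fzd1 to Fzd10, taken by symbol from the 39179 gene identifiers counted in macrophages sorted from tumours. All 10 were found, and 7 of them (Fzd1 to Fzd7) held enough counts to be tested. Fzd8, Fzd9 and Fzd10 were at or near 0. Fzd3 passed the filter on low counts only through the MycCaP-BMP4 libraries. The macrophages came from subcutaneous tumours raised in FVB mice by injecting MycCaP cells, a mouse prostate cancer line from a MYC-transgenic tumour of the same strain, or MycCaP-BMP4 cells, which overexpress the secreted bone morphogenetic protein BMP4. They were sorted from dissociated tumours by surface staining for CD45, CD11b and F4/80 and absence of GR1 (only the MycCaP-BMP4 titles name F4/80), and polyadenylated RNA of 2 libraries per group was sequenced. Not given in the sources used here were the ages of the mice, the number of tumours behind a library and whether MycCaP-BMP4 is 1 clone. The labels do not say whether separate mice gave the libraries of a group, so the spread behind each p-value may be technical.

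Frizzled proteins are multi-pass membrane receptors whose extracellular cysteine-rich domain binds Wnt proteins. With LRP5 or LRP6 as co-receptor they recruit Dishevelled and stabilise beta-catenin, and with ROR or RYK co-receptors or planar polarity proteins they signal without it. In macrophages, Fzd5 is best known as a receptor for WNT5A in inflammatory signalling, and Fzd4 is known in blood vessels as the receptor for Norrin.

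The 4 libraries held between 23058263 and 24967143 counts in genes, and the detection floor of 3 counts corresponded to 0.120 to 0.130 CPM (counts in 1000000 gene counts), by counting error alone. Values are given for replicate 1 and then replicate 2 of each group throughout. Bmp4 had 4 and 1 counts in the MycCaP libraries and 14136 and 4138 counts in the MycCaP-BMP4 libraries. Its edgeR adjusted p was 0.0729. The part of the injected tumour cells in the Bmp4 counts was not tested. MycCaP-BMP4 replicate 1 stood apart from the others: the 15 macrophage marker genes had a median of 19.5% of their MycCaP mean there and 74.6% in MycCaP-BMP4 replicate 2. The 11 tumour epithelial markers summed to 112 and 145 CPM in the MycCaP libraries and 787 and 310 CPM in the MycCaP-BMP4 libraries, with Esrp1 at 0 in all 4 libraries. In such bulk samples, fewer cells of a type and less RNA per cell cannot be told apart.

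RefSeq promoter windows (GRCm38.p6) matched 6 of the 10 Frizzled genes by symbol, and those of the 4 tested genes among them are printed. Fzd2, Fzd3 and Fzd6 had no window. As described below, Fzd7 lay lower in both MycCaP-BMP4 libraries, Fzd4 lay higher in both, Fzd5 differed least and Fzd1 went opposite ways in them. Each line is the 250 bases before the RefSeq start, 5′ to 3′ on the gene's strand. Capitals mark matches on either strand to 6 short motifs bound by general or signal-driven factors, spelled out after the sequences. Neighbouring GC boxes overlap by 1 base at 1 place in Fzd4 and 1 in Fzd7, and in Fzd4 a GC box directly adjoins the SMAD match.
Fzd7: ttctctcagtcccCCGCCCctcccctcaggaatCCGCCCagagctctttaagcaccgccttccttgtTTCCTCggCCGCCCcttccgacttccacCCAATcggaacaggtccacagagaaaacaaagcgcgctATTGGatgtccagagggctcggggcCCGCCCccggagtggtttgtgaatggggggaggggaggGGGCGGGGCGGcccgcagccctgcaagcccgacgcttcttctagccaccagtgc
Fzd4: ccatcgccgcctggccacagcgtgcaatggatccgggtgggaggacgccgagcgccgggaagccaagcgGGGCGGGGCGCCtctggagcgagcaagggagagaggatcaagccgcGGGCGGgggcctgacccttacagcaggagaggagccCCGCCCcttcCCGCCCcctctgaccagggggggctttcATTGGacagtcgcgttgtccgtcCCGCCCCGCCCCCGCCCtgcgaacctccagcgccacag
Fzd5: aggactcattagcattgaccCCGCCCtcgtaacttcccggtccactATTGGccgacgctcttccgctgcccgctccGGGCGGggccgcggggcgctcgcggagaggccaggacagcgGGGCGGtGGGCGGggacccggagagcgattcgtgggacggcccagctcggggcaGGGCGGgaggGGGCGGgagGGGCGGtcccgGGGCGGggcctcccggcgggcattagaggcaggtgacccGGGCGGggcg
Fzd1: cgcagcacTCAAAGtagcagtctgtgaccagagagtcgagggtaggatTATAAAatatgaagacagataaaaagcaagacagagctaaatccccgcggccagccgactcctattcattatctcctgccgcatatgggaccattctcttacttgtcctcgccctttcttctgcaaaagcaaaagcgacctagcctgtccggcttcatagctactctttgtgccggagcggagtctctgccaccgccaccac
The windows lie at chr1:59481897-59482146 (plus strand, Fzd7), chr7:89404116-89404365 (plus, Fzd4), chr1:64737751-64738000 (minus, Fzd5) and chr5:4758217-4758466 (minus, Fzd1).

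The Fzd4, Fzd5 and Fzd7 windows held many GC boxes, the letters GGGCGG that SP1 binds, with 7, 9 and 6 matches. The Fzd1 window had 0. Among 32851 RefSeq windows of this length, 32.7% held a GC box. GC content was 72.8% in Fzd4, 76.4% in Fzd5 and 65.2% in Fzd7 against 51.2% in Fzd1, where the median window had 52.4%. CCAAT boxes (letters CCAAT, bound by NF-Y), present in 33.8% of windows, numbered 1 in Fzd4, 1 in Fzd5 and 2 in Fzd7. Fzd4 held 1 match to the GC-rich SMAD letters GGCGCC, which 9.59% of windows hold and which effectors of BMP signalling can bind. Fzd7 held 1 PU.1 core, the letters GAGGAA of a macrophage factor, found in 23.3% of windows. Fzd1 held 1 TATA box, searched as TATAAA and found in 12.4% of windows. It also held 1 TCF/LEF core, the letters CTTTGA bound by partners of beta-catenin, found in 13.8% of windows. The shares are over all windows and were not matched for GC content. A match describes the letters and does not show a site in use. The start of Fzd7 in GENCODE M21 is 277 bases downstream of the RefSeq start, and that of Fzd1 181 bases downstream.

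The most abundant Frizzled mRNA of the MycCaP samples was that of Fzd7, a receptor known from stem cells and epithelial cancers. Levels of different genes were compared as CPM per kilobase of merged exons. Fzd7 stood at 6.53 ± 0.151 (SD, n = 2) on this scale in the MycCaP libraries, above Fzd5 at 2.62 ± 0.132 (SD, n = 2). Fzd6 followed at 1.83 ± 0.585 and Fzd1 at 1.38 ± 0.281, which did not differ beyond their spread. Fzd2 at 0.603 ± 0.0927 and Fzd4 at 0.484 ± 0.151 came next, closer together than the larger of their SDs, with Fzd2 above Fzd4 in both libraries. Fzd8, Fzd9 and Fzd3 were at or below 0.0323, and Fzd10 was at 0. In the MycCaP-BMP4 libraries Fzd6 came first at 8.49 ± 5.15 (SD, n = 2), with a wide gap between them. Next were Fzd7 at 3.72 ± 0.228 and Fzd5 at 2.79 ± 0.153. Fzd4 at 1.36 ± 0.328, Fzd2 at 1.19 ± 0.857 and Fzd1 at 1.19 ± 1.48 did not differ beyond their spread. Fzd3 reached 0.103 ± 0.0977. The order of the first 2 genes was the same in both libraries of each group.

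**Figure D1:**
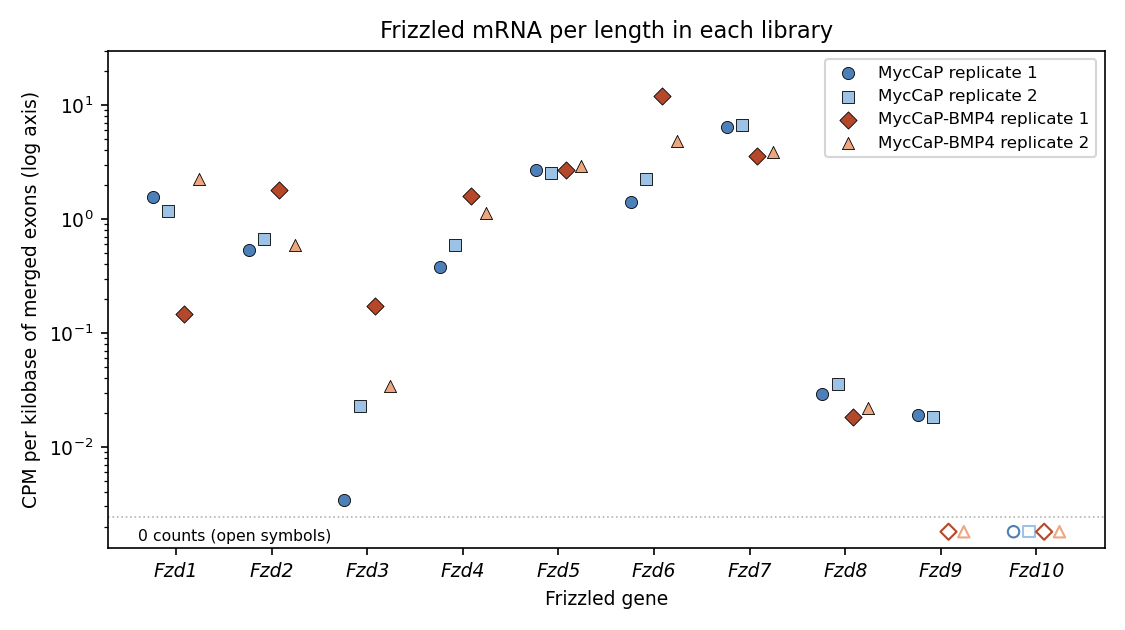
Level of each Frizzled gene in each library, as CPM per kilobase of merged exons on a log axis, with open symbols for 0 counts. Fzd7 is highest in both MycCaP libraries (6.42 and 6.63) and Fzd6 in both MycCaP-BMP4 libraries (12.1 and 4.85).

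The make-up of the family within a library does not depend on how libraries are scaled against each other. Shares are parts of a whole, so a rise in any member lowers the shares of the others. Fzd7 held 49.0% and 47.7% of the summed Frizzled level per length in the MycCaP libraries and 16.1% and 24.8% in the MycCaP-BMP4 libraries. Its mean share was 48.3% ± 0.973 (SD, n = 2) against 20.4% ± 6.15 (SD, n = 2), a difference of -27.9 percentage points. Fzd6 held 10.8% and 16.1% against 54.9% and 31.0%. Both differences were larger than the spread between libraries, although an exact two-sided permutation test of 2 against 2 libraries cannot give a p below 0.333. The Fzd4 share was small and did not overlap between groups, with 2.88% and 4.24% against 7.22% and 7.23%. The share of Fzd5 overlapped between groups, at 20.7% and 18.2% against 12.1% and 18.5%. Fzd1 held 12.0% and 8.46% against 0.664% and 14.3%. The level of Fzd7 relative to Fzd6 was 4.53 and 2.96 in the MycCaP libraries and 0.293 and 0.799 in the MycCaP-BMP4 libraries. Relative to Fzd5, Fzd7 was 2.37 and 2.62 against 1.33 and 1.34. That ratio was nearly equal in the MycCaP-BMP4 libraries.

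**Figure D2:**
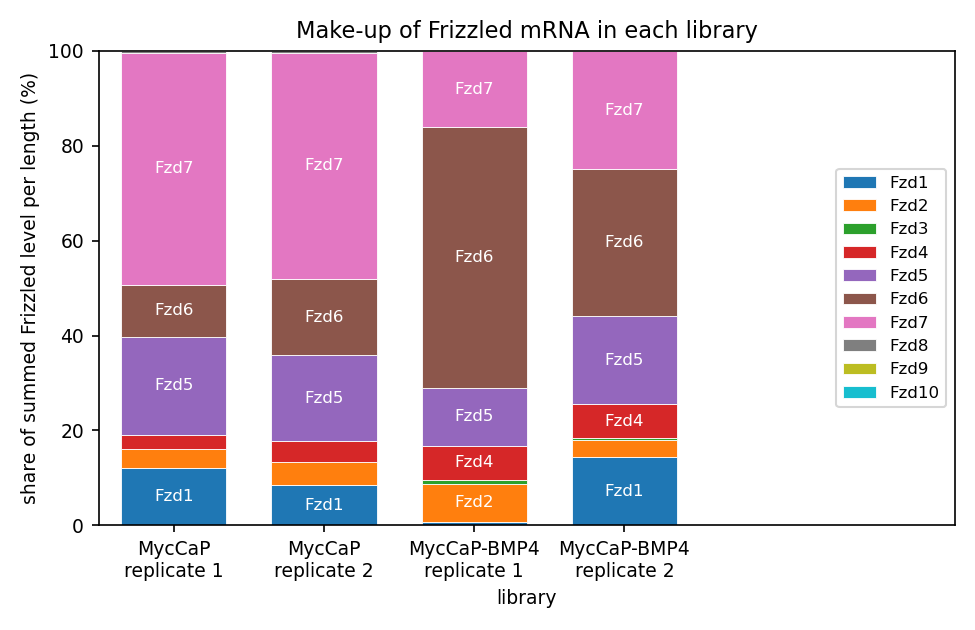
Share of each Frizzled gene in the summed level per length of the family, in percent, with 1 bar per library. Fzd7 makes up 49.0% and 47.7% of the MycCaP bars, and Fzd6 makes up 54.9% and 31.0% of the MycCaP-BMP4 bars.

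The groups were compared to ask how macrophages of BMP4-overexpressing tumours differ. The comparison was made with edgeR's quasi-likelihood test across 14075 genes with Benjamini-Hochberg adjustment. No Frizzled gene passed at an adjusted p of 0.05 and neither did any other gene (0% of those tested), while 2680 genes had an unadjusted p under 0.05. Of the 7 Frizzled genes tested, Fzd3, Fzd4 and Fzd6 lay above, and Fzd7 below, both MycCaP values in each MycCaP-BMP4 library. Over all genes tested, 28.9% lay higher and 29.7% lower without overlap, 58.7% in all, so 4 of 7 members without overlap is near that background. Fzd3 is among the 4, and its place there was set in part by the filter. An unadjusted p under 0.05 was found for Fzd6 and Fzd4, both higher (12.3% of all genes), and for Fzd7, lower (6.76%), against 19% of genes in either direction. The median log2 fold change of the 7 was 0.99, against -0.03 over all genes, and it was 0.54 over 6 genes with a filter of 1 CPM in 2 libraries, which leaves out Fzd3. It is given as a description only.

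Fzd6, a receptor known from planar polarity in skin and hair, had 6.82 and 10.8 CPM in the MycCaP libraries and 58.4 and 23.4 CPM in the MycCaP-BMP4 libraries. The groups did not overlap, and MycCaP-BMP4 replicate 1 was the highest. The log2 fold change was 2.21 ± 0.52 (SE; 95% interval 0.92 to 3.51) with an edgeR adjusted p of 0.148. DESeq2's test called Fzd6 (adjusted p = 0.00149) and Fzd4 (adjusted p = 0.0475) both higher, among the 9.84% of genes it called (6.83% higher). With no filter on low counts, edgeR called 5.07% of genes (3.59% higher), Fzd6 among them with an adjusted p of 0.00574. Without MycCaP-BMP4 replicate 1 the log2 fold change of Fzd6 was 1.403 with an edgeR adjusted p of 0.0220, where 7.64% of genes were called (4.77% higher) and only the MycCaP pair gave the spread. Fzd6 lay at 663% and 265% of its MycCaP mean in the MycCaP-BMP4 libraries, where the tested epithelial markers had medians of 476% and 197%. Of those 7 markers, 5 lay higher in both MycCaP-BMP4 libraries, where 28.9% of all genes did. Cdh1 lay lower in both, and Krt8 overlapped. Some genes of other marker lists were higher too. Of 10 osteoblast and cartilage markers 6 were tested, 4 of them only through the MycCaP-BMP4 libraries. Of the rest, Sox9 had 11.2 and 19.3 CPM against 128 and 65.5 CPM, and Runx2 overlapped. Of 10 fibroblast and mural markers, 2 lay higher in both MycCaP-BMP4 libraries, 2 lay lower and 6 overlapped. The part of tumour cells or other cells in the Fzd6 counts was not tested. The gene (ENSMUSG00000022297, chromosome 15, 39006034 to 39038188 on GRCm38, up to 7 exons in GENCODE M21) overlaps the antisense gene Gm26704, which had at most 2 counts in a library. With the strand setting of the counting not given, that number does not show how the overlap touched the Fzd6 counts.

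Fzd3, the close relative of Fzd6 in planar polarity and axon guidance, was scarce. It had 1 and 7 counts in the MycCaP libraries and 61 and 10 in the MycCaP-BMP4 libraries, or 0.0437 and 0.296 against 2.21 and 0.439 CPM. The groups did not overlap, but the exact 95% counting intervals of 2.81 to 14.4 counts in MycCaP replicate 2 and 4.80 to 18.4 in MycCaP-BMP4 replicate 2 did. The fitted log2 fold change was 2.93 ± 1.21 (SE; edgeR adjusted p = 0.271). Without MycCaP-BMP4 replicate 1 it was 1.33 and without MycCaP replicate 2 it was 4.77, so the size of the difference rests on single libraries. The gene (ENSMUSG00000007989) lies on chromosome 14, 65192449 to 65262463.

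Fzd4, the Norrin receptor, had 2.54 and 3.97 CPM in the MycCaP libraries and 10.7 and 7.60 CPM in the MycCaP-BMP4 libraries. All MycCaP-BMP4 values were above the MycCaP values, and the gap between the groups was wider than the spread within either. The log2 fold change was 1.49 ± 0.46 (SE; 95% interval 0.34 to 2.64), with an edgeR adjusted p of 0.195, and 1.22 without MycCaP-BMP4 replicate 1. Of 10 endothelial markers, 4 were below both MycCaP values in each MycCaP-BMP4 library, where 29.7% of all genes did, and 6 overlapped. Their sum was 71.4 and 114 CPM against 64.3 and 40.4 CPM, and none was at 0 in every library. Their part in the Fzd4 counts was not tested. The gene (ENSMUSG00000049791, chromosome 7, 89404355 to 89413134) has 2 exons, and its promoter window is the one with the SMAD letters printed above.

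Fzd7 was the 1 member lower in both MycCaP-BMP4 libraries among those tested, with 29.1 and 30.1 CPM against 16.1 and 17.6 CPM. Values within a group were close together and the groups were well apart. The log2 fold change was -0.81 ± 0.26 (SE; 95% interval -1.45 to -0.17), with an edgeR adjusted p of 0.199, and -0.75 without MycCaP-BMP4 replicate 1. Fzd7 stood at 54.5% and 59.4% of its MycCaP mean, nearly the same in both libraries, while the macrophage markers stood at 19.5% and 74.6%. Relative to the macrophage marker median, Fzd7 was therefore 2.80-fold its MycCaP level in replicate 1 and 0.797-fold in replicate 2. Scaled on those markers in place of all genes, its log2 fold change turned to 0.81, below the median of 1.61 that all genes then had. The gene (ENSMUSG00000041075, chromosome 1, 59482424 to 59486955) is a single exon.

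Fzd5, the WNT5A receptor of macrophages, had 18.8 and 17.5 CPM in the MycCaP libraries and 18.5 and 20.0 CPM in the MycCaP-BMP4 libraries. The groups overlapped, and all 4 values lay within a narrow range. The log2 fold change was 0.09 ± 0.27 (SE), with an edgeR adjusted p of 0.874 and a 95% interval from -0.58 to 0.76. A difference of either sign inside that interval could have been missed. Relative to the macrophage marker median, Fzd5 was 5.25-fold its MycCaP level in MycCaP-BMP4 replicate 1 and 1.48-fold in replicate 2. Fzd5 (ENSMUSG00000045005, chromosome 1, 64730558 to 64737751) overlaps the antisense gene Gm38058 in the annotation, and the strand setting of the counting is not given in the sources used here.

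Fzd1 and Fzd2, relatives of Fzd7 that also bind Wnt proteins, differed more between the MycCaP-BMP4 libraries than between the groups. Fzd1 had 6.61 and 4.94 CPM in the MycCaP libraries and 0.616 and 9.40 CPM in the MycCaP-BMP4 libraries. One MycCaP-BMP4 library was thus below and the other above both MycCaP libraries. The log2 fold change of Fzd1 was -0.21 ± 1.10 (SE), with an edgeR adjusted p of 0.929. It was 0.70 without MycCaP-BMP4 replicate 1 and -3.19 without replicate 2. In replicate 1 Fzd1 was at 10.7% of its MycCaP mean, lower than the macrophage marker median of 19.5%, and in replicate 2 it was at 163%, above the marker median of 74.6%. Fzd2 went the other way, with 1.97 and 2.45 CPM against 6.59 and 2.15 CPM. It was high in MycCaP-BMP4 replicate 1 and within the MycCaP range in replicate 2. The log2 fold change of Fzd2 was 0.99 ± 0.68 (SE) with an edgeR adjusted p of 0.464, and -0.04 without replicate 1. Fzd1 (ENSMUSG00000044674) lies on chromosome 5, 4753839 to 4758035, and Fzd2 (ENSMUSG00000050288) on chromosome 11, 102604396 to 102608058. Both are single exons.

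**Figure D3:**
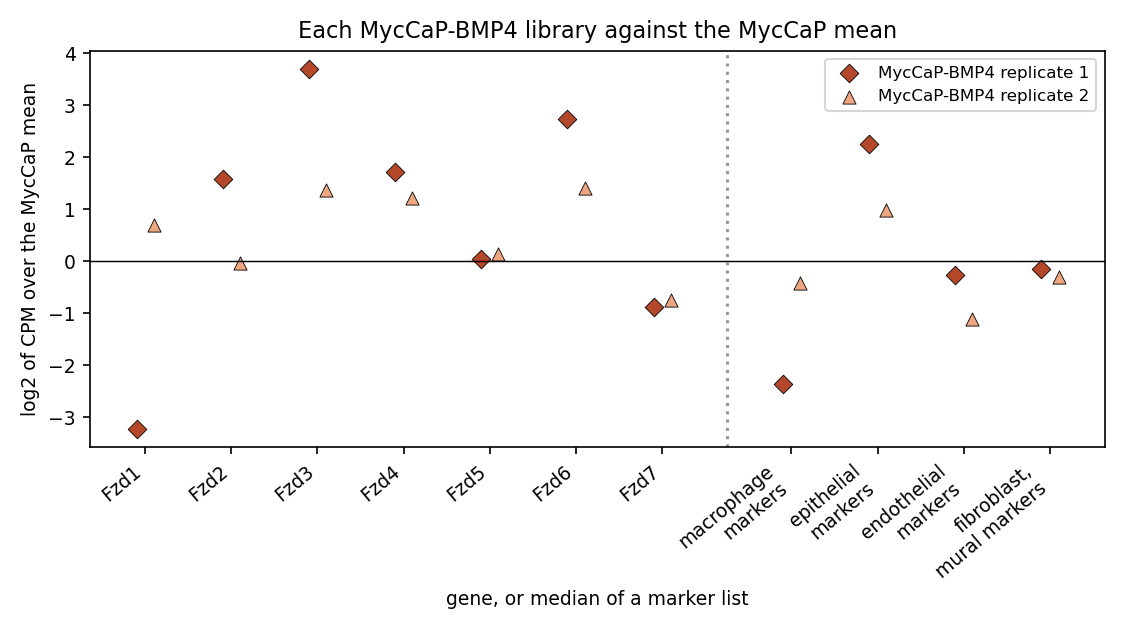
Log2 of the CPM in each MycCaP-BMP4 library over the MycCaP mean, for the 7 Frizzled genes tested and for the medians of 4 marker lists. Fzd1 is at -3.23 and 0.70 and Fzd7 at -0.88 and -0.75, beside -2.36 and -0.42 for the macrophage markers.

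The 3 other Frizzled genes were too low to test. Fzd8 (ENSMUSG00000036904, chromosome 18, 9212163 to 9218136) had 4 and 5 counts in the MycCaP libraries and 3 and 3 in the MycCaP-BMP4 libraries, a ratio of 0.616 with an exact 95% counting interval from 0.180 to 1.94. Fzd9 (ENSMUSG00000049551, chromosome 5, 135248938 to 135251230), a receptor known from bone formation, had 1 count in each MycCaP library and 0 in the others. Fzd10 (ENSMUSG00000081683, chromosome 5, 128600844 to 128604093) had 0 counts in all 4 libraries, which allows a level of up to 0.120 to 0.130 CPM. No difference in Fzd9 or Fzd10 was detectable at this depth.

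Scaling changed the size of all 7 fold changes and the sign of some. With library size alone the values of Fzd6, Fzd4 and Fzd7 were 2.42, 1.67 and -0.65. Scaled on the macrophage markers they were 4.18, 3.27 and 0.81, and Fzd3 and Fzd6 then passed the edgeR test (adjusted p = 0.0218 and 0.0259) among 6.77% of all genes (6.61% higher). Relative to the median of all genes under that scaling, Fzd3 was at 3.38, Fzd6 at 2.57, Fzd4 at 1.66, Fzd2 at 1.39, Fzd5 at 0.11, Fzd7 at -0.80 and Fzd1 at -1.17. Under TMM scaling the same differences were 2.96, 2.24, 1.52, 1.01, 0.12, -0.78 and -0.18, so Fzd1 moved most. Without MycCaP-BMP4 replicate 2, edgeR called 6 of the 7 Frizzled genes, with Fzd2, Fzd3, Fzd4 and Fzd6 as higher (19.9% of all genes) and Fzd1 and Fzd7 as lower, where it called 41.9% of all genes. Fzd5 was the exception. That fit compares 1 MycCaP-BMP4 library with the MycCaP pair and takes its spread from the pair alone.

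**Figure D4:**
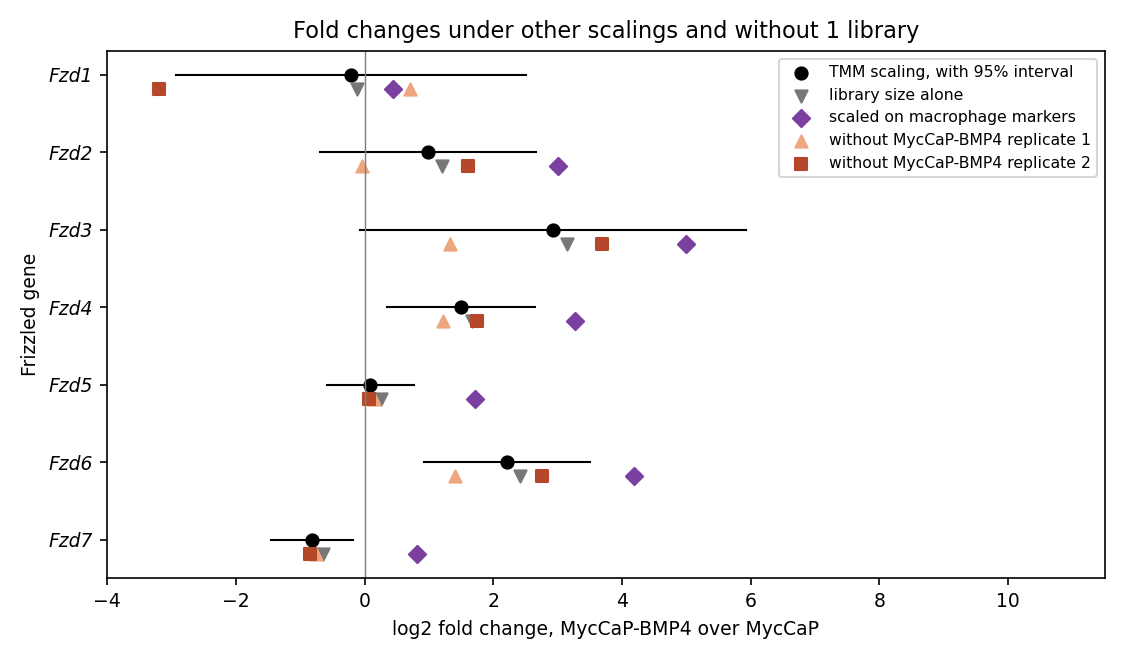
Log2 fold change of the 7 Frizzled genes tested, with the 95% interval of edgeR's fit under TMM scaling (trimmed mean of M values) as a bar and other settings as symbols. Without MycCaP-BMP4 replicate 2 and without replicate 1, Fzd1 is at -3.19 and 0.70 and Fzd5 at 0.06 and 0.14.

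The genes whose pattern over the 4 libraries was nearest to that of a Frizzled gene were found by the Euclidean distance between centred log2 CPM values. For Fzd7 these were Emilin1, Selenbp1 and Kif20a, at distances of 0.0536 to 0.0630. Fzd6 was nearest to Dmwd, Acsbg1 and Arhgap42 (0.0632 to 0.0759), and Fzd4 to Upk1b, Erc1 and Metap1d (0.0642 to 0.115). Fzd5 was nearest to Etf1, Naa50 and Zfp668 (0.0198 to 0.0445). Fzd2 was nearest to Wfdc12, Fads2 and Arhgef18 (0.0969 to 0.106). Fzd1 had no neighbour as near as the others had: C6 came first at 0.192, then Chp2 and Gda at 0.269 and 0.284. The distances rest on 4 libraries, and 10366 or 10367 candidate genes were searched for each.

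Among the ligands of Frizzled receptors, 6 of 19 Wnt genes were tested, Wnt2 only through the MycCaP-BMP4 libraries. None passed the edgeR test. Of the 5 other than Wnt2, 1 overlapped and 4 lay above both MycCaP values in each MycCaP-BMP4 library, where 28.9% of all genes lay higher. Wnt4 had 22.4 and 29.8 CPM in the MycCaP libraries and 212 and 81.7 CPM in the MycCaP-BMP4 libraries. Wnt7b, the gene with the smallest p of the list (edgeR adjusted p = 0.112), had 2.76 and 5.32 CPM against 46.7 and 25.5 CPM. Wnt5a, a ligand of Fzd5 and of ROR co-receptors, had 2.06 and 2.83 CPM against 15.6 and 7.82 CPM, with an edgeR adjusted p of 0.146. These ligands were higher in MycCaP-BMP4 replicate 1 than in replicate 2, the order also seen for Fzd6 and the summed epithelial markers. Cdh1, Epcam and Krt18 among those markers had the reverse order. The part of tumour cells in the ligand counts was not tested. Ndp, which encodes Norrin, had 0 counts in all libraries. Of 13 genes for Norrin and secreted inhibitors, 3 were tested, all of them only through the MycCaP-BMP4 libraries, and none passed. The Wnt-binding Sfrp1 had 0.262 and 0.422 CPM against 1.85 and 2.06 CPM. Sfrp4, another secreted Frizzled-related protein, had 0 counts in the MycCaP libraries and 44 and 48 counts in the MycCaP-BMP4 libraries. That is at least 28.7-fold higher when the MycCaP group is set at 3 counts in all. Wif1 had 0.131 and 0.0844 CPM against 366 and 174 CPM.

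Of the co-receptors and partners, 9 of 10 were tested and none was called. In both MycCaP-BMP4 libraries 4 lay higher and 1 lower, and 5 of 9 without overlap is near the 58.7% of all genes. The median of the 9 log2 fold changes was 0.44. Lrp5, the co-receptor of Fzd4 and other Frizzled proteins, had 100.2 and 112 CPM against 181 and 107 CPM, which overlapped. Lrp6 had 59.98 and 59.2 CPM against 47.2 and 55.0 CPM (log2 fold change -0.22, edgeR adjusted p = 0.627). Ror1, a WNT5A receptor that signals without beta-catenin, had 3.11 and 7.39 CPM against 66.7 and 32.1 CPM (log2 fold change 3.23 ± 0.58, SE; edgeR adjusted p = 0.124). Ryk, another Wnt receptor, had 15.0 and 17.4 CPM against 84.0 and 37.5 CPM, with an edgeR adjusted p of 0.145. Reck, which with Adgra2 makes Frizzled respond to WNT7 ligands, had 1.09 and 1.39 CPM against 5.50 and 3.16 CPM. Adgra2 itself overlapped, at 0.962 and 2.87 CPM against 0.724 and 1.01 CPM. Tspan12, the Norrin co-receptor, had 7 and 22 counts against 28 and 3. Smo, the Frizzled-like transducer of Hedgehog signals, had 15.5 and 29.05 CPM against 76.3 and 29.4 CPM.

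Receptor turnover depends on the ubiquitin ligases ZNRF3 and RNF43, which remove Frizzled proteins from the membrane and are restrained by R-spondins bound to LGR proteins. Of 9 genes 4 were tested, Rnf43 and Lgr6 only through the MycCaP-BMP4 libraries. None passed. The other 2, Znrf3 and Lgr4, lay higher in both MycCaP-BMP4 libraries, as did 28.9% of all genes. Znrf3 had 3.24 and 4.43 CPM against 18.2 and 7.60 CPM, with an edgeR adjusted p of 0.194. Lgr4 had 5.03 and 7.52 CPM against 29.5 and 13.5 CPM, with an edgeR adjusted p of 0.164. Lgr6 had 0 counts in the MycCaP libraries and 79 and 23 counts in the MycCaP-BMP4 libraries. That is at least 30.03-fold higher on the same floor. The 4 R-spondin genes had at most 2 counts in a library.

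Inside the cell, all 9 genes of Dishevelled and the beta-catenin destruction complex were tested and none passed. Their median log2 fold change was 0.01, with 3 higher and 1 lower in both MycCaP-BMP4 libraries, where 58.7% of all genes lay one way or the other. Dvl1, one of the Dishevelled adaptors that Frizzled proteins bind, was highest in MycCaP-BMP4 replicate 1, with 48.6 and 52.8 CPM against 161 and 84.0 CPM (log2 fold change 1.28 ± 0.37, SE; edgeR adjusted p = 0.179). Dvl3 had 8.71 and 11.0 CPM against 16.3 and 16.3 CPM, and Dvl2 overlapped at 21.9 and 21.5 CPM against 21.2 and 26.01 CPM. Ctnnb1, which encodes beta-catenin, had 411 and 459 CPM against 490 and 617 CPM, and Axin1, a scaffold of the destruction complex, had 89.9 and 77.9 CPM against 76.3 and 69.5 CPM.

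Of 7 genes of beta-catenin feedback 2 were tested, and neither passed. Apcdd1, a membrane inhibitor of Wnt signalling, had 1.62 and 3.76 CPM against 24.1 and 9.05 CPM, and Tcf7, a TCF transcription factor also made by T cells, had 4.77 and 5.49 CPM against 20.0 and 7.95 CPM. The 10 T and NK cell markers had medians of 11.6% and 16.3% of their MycCaP mean in the MycCaP-BMP4 libraries. Of these, 8 lay lower in both, as did 29.7% of all genes. Cd3e and Cd4 overlapped, at 1.07-fold and 1.13-fold their MycCaP mean in MycCaP-BMP4 replicate 2. Cd3e, Cd3d, Cd3g, Cd8a, Ncr1 and Gzma passed the filter only through the MycCaP libraries. The part of T cells in the Tcf7 counts was not tested. Axin2, a general target of beta-catenin, was under the filter and lay lower, with 20 and 10 counts against 1 and 2. Among the planar polarity partners of Fzd3 and Fzd6, 5 of 7 were tested, Celsr2 only through the MycCaP-BMP4 libraries, and none passed. Of the 4 other than Celsr2, 3 overlapped and Vangl2 lay above both MycCaP values, where 28.9% of all genes lay higher. Vangl2 had 3.32 and 2.91 CPM against 4.74 and 4.35 CPM, and Celsr2 had 0.175 and 0.507 CPM against 1.85 and 1.27 CPM.

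**Figure D5:**
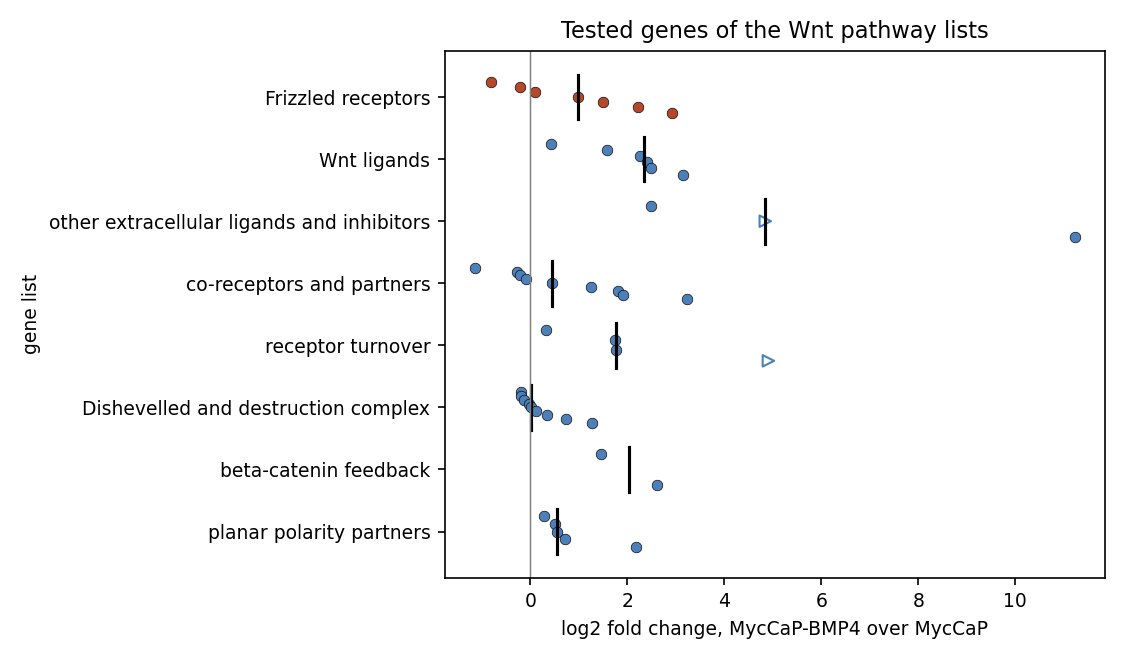
Log2 fold changes, MycCaP-BMP4 over MycCaP, of the tested genes of 8 pathway lists, with 1 point per gene, a line at the list's median and open triangles for genes at 0 in the MycCaP group, set at their lower bound. The Frizzled genes run from -0.81 to 2.93, and the Dishevelled and destruction complex list centres at 0.01.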

How the data were processed

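Each of the 4 deposited files holds whole-number counts of reads per gene. Per the submitters' processing notes, the authors used STAR 2.6.0b, HTSeq, RSEM and Bowtie2 2.2.3 and mouse GRCm38 (mm10). The tools' roles, the annotation and the strand setting were not given in the sources used here. Lines that name no gene (3.37% to 6.03% of reads outside genes, 8.01% to 10.6% aligned to several places) were left out. Of 39179 identifiers, 37607 were paired with a symbol and a GENCODE M21 gene model, from which exon lengths were taken.

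Counts were filtered with filterByExpr (about 0.411 CPM in 2 libraries), scaled with TMM and tested in R 4.3.3 with edgeR 4.0.16 (two-sided, no covariate, threshold 0.05). CPM values use TMM-scaled totals. SE and 95% intervals were derived from edgeR's F statistic and degrees of freedom. The test was tried on simulated counts. Alternatives were other scalings and filters, DESeq2 1.42.0, limma-voom (limma 3.58.1), the replicate number as a block, and each library left out. Neighbours were sought among genes with a mean of at least 5 CPM, for Frizzled genes with at least 1 CPM, on log2(CPM + 0.5), and 3 were named for each. Up to 4 genes of each pathway list, those with the smallest p, and any gene a sentence needs were named. Adgra2, Axin2, Dvl2, Lrp5, Lrp6, Ndp and Tspan12 are of the latter kind. The members and lists were chosen with earlier results of these data known. The value of 1 epithelial marker is not reported here.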

Additional observations from a re-analysis of the deposited data

How the results depend on the processing

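The edgeR count of 0 called genes became 65 with library size alone, 953 scaled on the macrophage markers and 1109 with no filter on low counts, and DESeq2's test called 1385. Leaving out 1 library gave 0 to 5894, the most without MycCaP-BMP4 replicate 2 and 1075 without MycCaP-BMP4 replicate 1. The labels do not say that equal replicate numbers share a source, and deviations of same-numbered libraries correlated at -0.13 across genes. With the replicate number as a block, edgeR called 2 genes, and with the pairing crossed, chosen after seeing the data, 689. The median of the Frizzled genes was 0.99 and became 3.002 scaled on the macrophage markers, 0.54 with a filter of 1 CPM in 2 libraries, which leaves out Fzd3, and 0.0856 with no filter, where 9 genes were tested. It ran from 0.70 to 1.61 with 1 library left out. The difference in the Fzd7 share ran from -32.3 to -23.6 percentage points with 1 library left out. Fzd1 ran from -3.19 to 0.70 with 1 library left out, and its sign turned, to 0.44 scaled on the macrophage markers, 0.02 without MycCaP replicate 1 and 0.70 without MycCaP-BMP4 replicate 1. Fzd2 turned to -0.0399 without MycCaP-BMP4 replicate 1, and Fzd7 to 0.81 under the macrophage scaling. That scaling moved the median of all genes to 1.61, and relative to it Fzd1 was at -1.17 and Fzd7 at -0.80. The causes of the other changes were not tested. Of 90 pairs of a Frizzled gene and an alternative, 72 kept sign and side of the threshold, 13 kept the sign and passed, and 5 turned. With 2 libraries a group, low counts limit Fzd3 and leave Fzd8, Fzd9 and Fzd10 without a test.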
